A study of Mus musculus with 4 samples.

Results

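The cells called vFB3 here, after the study's name for a set of villus fibroblasts, were a small set of PDGFRb+ stromal cells of the mouse intestine, picked out by a UMI (unique molecular identifier, the tag of 1 captured transcript) of Tacr1, Adgrf5, Itga8, Slco2a1 or P2rx1. A cell was a member if at least 2 of these 5 genes had a UMI and if it carried fewer than 3 of 5 mural cell genes, fewer than 3 of 5 smooth muscle genes, fewer than 3 of 6 genes of the FB4 fibroblasts and, unless 3 or more of the 5 markers were seen, fewer than 4 of 6 genes of the FB5 fibroblasts. The rule found 91 members among 4108 cells, a share of 2.22% (exact 95% interval 1.79 to 2.71). The members were chosen on measured counts, so the levels below describe the chosen cells, and no test was made.

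The study used single-cell RNA sequencing of the 3-prime ends of transcripts to ask which intestinal stromal cells make the lymphatic growth factor Vegfc once the Hippo kinases are removed. The series held 4 samples in 3 groups. The cells described here came from 1 library, LATS1/2 KO 1w. The 2 libraries of WT mice and the knockout library of the later time point, LATS1/2 KO 2w, are not analysed here. The LATS1/2 KO 1w cells were PDGFRb+ intestinal stromal cells sorted by FACS from adult C57BL/6J mice that carried a tamoxifen-dependent Cre (CreERT2) driven by Pdgfrb, a Tomato reporter and floxed alleles of both Lats1 and Lats2, at the time point labelled 1 week (1w). In these mice Cre acts in any cell that expresses Pdgfrb, mural and smooth muscle cells included, and the Tomato signal shows that Cre acted on the reporter, not that all 4 Lats alleles were lost in that cell. Every one of the 4108 cells held a UMI of Pdgfrb. With 1 library there is no replicate, so all intervals cover counting error only and say nothing of the variation between mice, and no value here separates an effect of the deletion from what vFB3 cells are in WT mice.

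The library held 46054627 UMIs. The vFB3 cells had a median of 13040 UMIs (range 4440 to 22555) and other cells a median of 10689. The median share of mitochondrial UMIs was 5.38% in members and 4.85% in other cells. All 4108 barcodes were distinct. The columns of the table were marked M or F, and this mark followed Xist exactly, as all 2125 F columns and 0 of the 1983 M columns had an Xist UMI. The members were 51 of the M columns, a share of 2.57% (1.92 to 3.37), and 40 of the F columns, a share of 1.88% (1.35 to 2.55). Scores of a doublet caller had a median of 0.0416 in members and 0.0493 in other cells. A Y-linked UMI together with Xist was seen in 2 members.

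Fibroblasts of the villus core lie beneath the epithelium around the capillaries and the central lymphatic vessel, the lacteal, and supply them with matrix, growth factors and chemokines. LATS1 and LATS2 are the kinases of the Hippo pathway that hold back the coactivators YAP and TAZ, which act through TEAD factors. Of the 5 genes of the rule, Tacr1 encodes the receptor for substance P, P2rx1 an ATP-gated cation channel, Itga8 an integrin subunit, Slco2a1 a prostaglandin transporter and Adgrf5 an adhesion G protein-coupled receptor. The position of the cells in the villus was not measured here, and the name vFB3 is that of the study. In mm10 with GENCODE M21, the 5 genes are Tacr1 on chromosome 6 from 82402334 to 82560104, Adgrf5 on chromosome 17 from 43360451 to 43459557, Itga8 on chromosome 2 from 12106632 to 12301922, Slco2a1 on chromosome 9 from 102988712 to 103096002 and P2rx1 on chromosome 11 from 72999103 to 73015200. The leading genes Mmp10 and Cxcl14 are on chromosome 9 from 7502352 to 7510240 and on chromosome 13 from 56288643 to 56296551. All of these are protein-coding, and each value below is a count over the whole gene.

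The 5 markers of the rule were not seen equally often. Itga8 and P2rx1 were each seen in 84 of the 91 members, Slco2a1 in 49, Adgrf5 in 43 and Tacr1 in 19. The members held 91.7% of all Tacr1 UMIs of the library, 85.03% of those of Adgrf5, 65.9% of P2rx1, 64.9% of Slco2a1 and 62.9% of Itga8, and these shares follow from the choice of the cells. Itga8 and P2rx1 were seen together in 83 cells of the library, 77 of them members. All 19 members with Tacr1 also had P2rx1, and 42 of the 43 with Adgrf5 had Itga8.

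By the number of markers, 42 cells had exactly 2 of the markers, and 49 had 3 or more (16 with 3, 18 with 4 and 15 with 5). Among the 42 cells at the threshold, 29 owed their place to the pair Itga8 and P2rx1, and 1 each had Adgrf5 or Tacr1. Just outside the rule stood 234 cells with exactly 1 marker that met its other conditions. A clustering of all cells into 10 clusters, in which the marker genes took part, placed 45 members in a cluster of 45 cells that held no other cell, 44 of them with 3 or more markers. The other 46 members lay in larger clusters. Of the cells with exactly 2 markers, 25 lay in a cluster of 721 cells and 8 in another of 352, both made up mostly of cells that met no gene list, and 6 lay in a cluster that held 51 of the 52 mural cells. The 49 members with 3 or more markers are called the core below and the 42 with exactly 2 the margin.

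The margin was heterogeneous. In the 6 members that clustered with mural cells, Acta2, the smooth muscle actin, was at 7655 CPM (UMIs per 1000000, pooled over cells), Rgs5, a pericyte gene, at 1149 CPM and Cxcl14 at 13.4 CPM. These 6 cells had 0 UMIs of Mmp10 and of Plvap, each with an upper limit of 49.3 CPM, and in these values they went against the label vFB3, though the rule counts them. In the 45 members of their own cluster Acta2, Rgs5 and Cxcl14 were at 777, 17.2 and 2420.1 CPM. The 30 members in the cluster of 721 cells had Cxcl14 at 1025 CPM and Vegfc at 322 CPM, beside the 387 CPM of Vegfc in the cluster of 45, but Plvap at 16.7 CPM against 488 CPM. The 8 members in the cluster of 352 cells had Vegfc at 68.3 CPM (25.1 to 149), Acta2 at 3483 CPM and Fos at 990.2 CPM, and they also had Mmp10 at 387 CPM (268 to 540.7), Cxcl14 at 819 CPM and Wnt4 at 409.7 CPM.

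Levels differed in steps with the number of markers seen, shown in the plot of pooled levels by marker number. Mmp10, which encodes the matrix-degrading stromelysin-2 and was not used by the rule, was at 16.4 CPM (14.9 to 18) in cells with 0 markers, 130.1 CPM (117 to 144) with 1, 253 CPM (212 to 299) with 2 and 1301 CPM (1151 to 1465) with 3. It was lower again in the cells with all 5, at 648 CPM (545 to 764). The chemokine gene Cxcl14 went from 92.8 CPM (89.2 to 96.5) with 0 markers to 379.9 CPM (357 to 403) with 1, 716 CPM (647 to 790.5) with 2 and 2654 CPM (2441 to 2880.1) with 4. Both genes were thus already higher in cells with 1 marker than in cells with 0. Plvap, which encodes a protein of the diaphragms of fenestrated endothelium, was near its low level up to 1 marker. It was at 7.03 CPM (6.07 to 8.11) with 0 markers, 7.11 CPM (4.34 to 11) with 1, 23.8 CPM (12.7 to 40.7) with 2 and 372 CPM (294 to 464) with 3. Vegfa and Ccbe1, which is needed to activate VEGF-C, resembled Plvap. Vegfa was at 10.3 CPM (9.1 to 11.6) with 0 markers, 12.8 CPM (5.15 to 26.4) with 2 and 73.5 CPM (42 to 119) with 5, and Ccbe1 was at 9.15 CPM (2.97 to 21.4) with 2 and 96.5 CPM (59.7 to 147) with 5. Vegfc itself followed a shallower course, from 127 CPM (123 to 132) with 0 markers to 191 CPM (175 to 208), 265 CPM (224 to 312) and 438 CPM (353 to 538) with 1, 2 and 3, and it was at 343 CPM (269 to 430.2) with 4 and 358 CPM (283 to 447) with 5. Adamdec1, a marker of the other villus fibroblasts, was at 4911 CPM (4884 to 4938) with 0 markers and 1658 CPM (1492 to 1839) with 5. The median depth of the cells was 10142 UMIs with 0 markers, 13320 with 2 and 14380 with 5. As CPM are relative to depth, a deeper cell has no higher CPM, but it has more chances to show a marker.

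**Figure D1:**
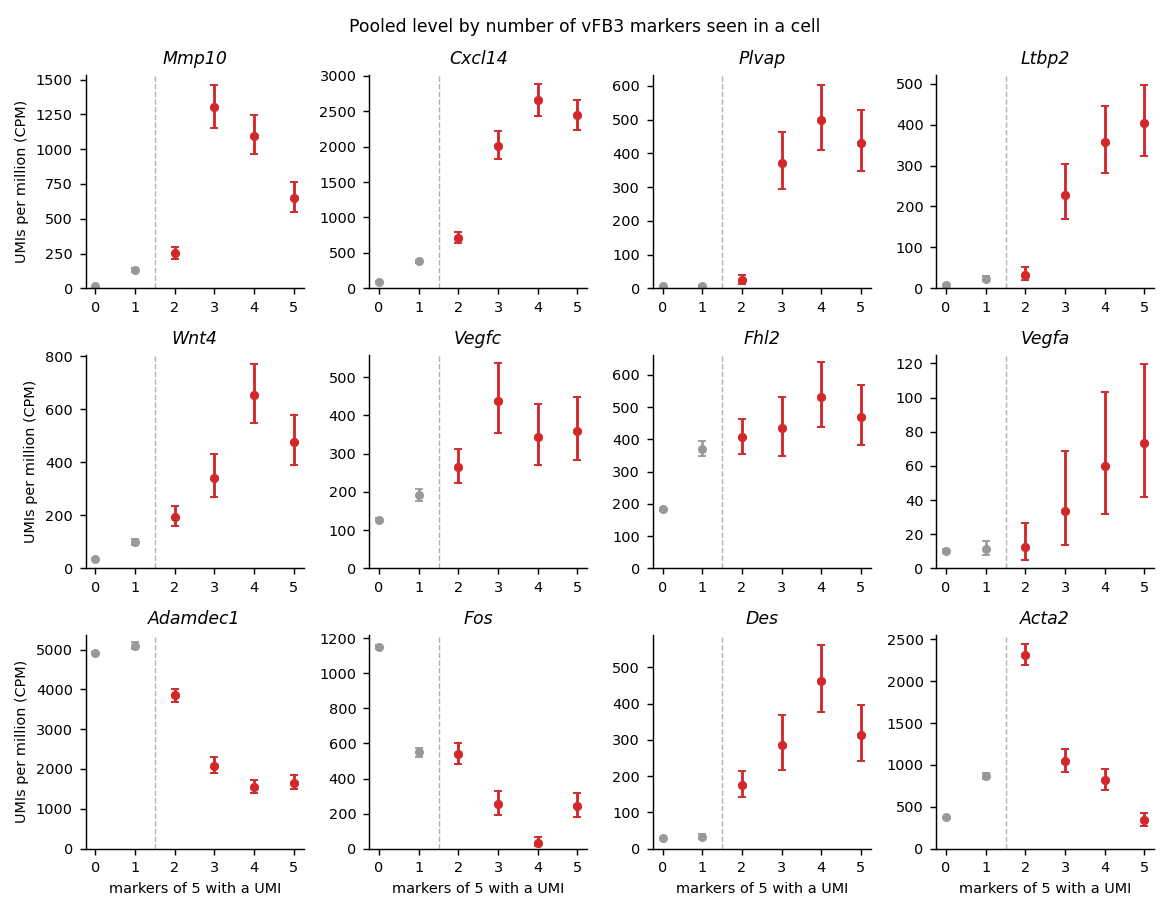
Pooled level in CPM (vertical axis from 0) of 12 genes in cells with 0 to 5 of the 5 vFB3 markers (horizontal axis), with exact Poisson 95% intervals as bars, red points for members and grey for cells outside it, all meeting the rule's other conditions. Mmp10 goes from 16.4 CPM with 0 markers to 1301 CPM with 3, Plvap from 7.11 CPM with 1 to 372 CPM with 3, and Acta2 is highest, at 2314 CPM, with exactly 2.

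The name vFB3 was checked against the markers the study gives for these cells. Besides P2rx1, which the rule used, these are Mmp10 and Fhl2, a LIM domain gene. Mmp10 was at 663 CPM in vFB3 cells and 18.6 CPM in other cells, a ratio of 35.6 (32.3 to 39.3), where the range in parentheses, here and below, is the exact 95% interval. The Mmp10 level of single members ran from 0 to 56.5 UMIs per 10000 with a median of 2.42, and the cell with most carried 9.51% of the members' UMIs. After thinning every cell to 5000 UMIs, an Mmp10 UMI was seen in 66.7% (55.9 to 76.3) of members, 4.13% (3.42 to 4.94) of cells of no list and 0 of 33 mural cells. Fhl2 was at 446 CPM in vFB3 cells and 156 CPM in other cells, a ratio of 2.86 (2.62 to 3.13). After the same thinning an Fhl2 UMI was seen in 87.8% of members and 48.7% of cells of no list. It was seen in 66.9% of FB5, 67.2% of smooth muscle, 51.5% of mural and 7.43% of FB4 cells. The study called Fhl2 exclusive to vFB3 in its WT cells, and here it was not. The members held 48.6% of the library's Mmp10 UMIs and 7.06% of its Fhl2 UMIs, so Mmp10 was concentrated in these cells and Fhl2 was spread widely. Of the 4 genes that mark the other villus fibroblasts, 3 were at least 2-fold lower in members. The study also stained Serpina3n in vFB3 cells, so this gene goes against the label in part. Serpina3n was at 41.2 CPM in vFB3 cells and 158 CPM in other cells, a ratio of 0.26 (0.192 to 0.344), with 35.7 CPM in the core. Shisa3 was at 15.1 against 89.6 CPM, and Adamdec1 was nearest to even at 2723 against 3656 CPM.

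**Figure D2:**
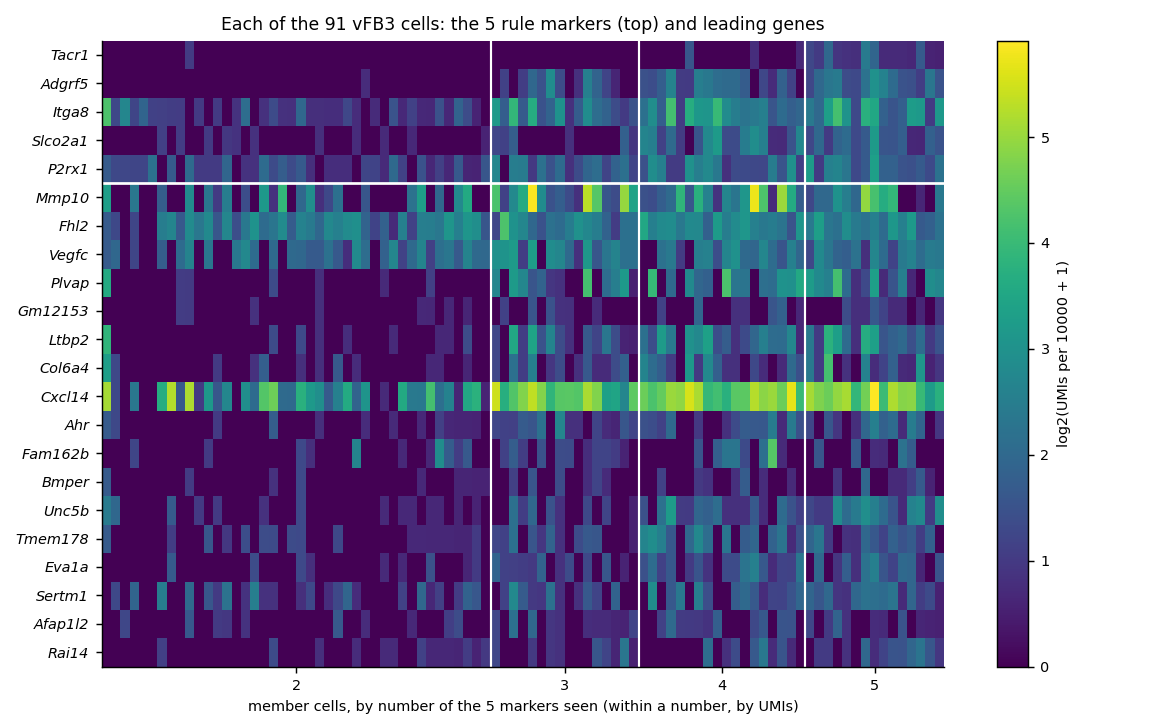
Each column is 1 of the 91 member cells, ordered by the number of markers seen (2 to 5, white lines) and within a number by depth. Rows are the 5 markers of the rule above the white line and 17 other genes below it, colored by log2 of UMIs per 10000 plus 1: Cxcl14 is above 0 in all 49 columns with 3 or more markers and Mmp10 in 46 of them, over a wide range, and Plvap, Ltbp2 and Eva1a are mostly dark in the columns with 2.

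Among 10117 genes at 5 CPM or more over the library, 360 (3.56%) were at least 2-fold higher in members than in other cells and 879 (8.69%) at least 2-fold lower, with a median ratio of 1.05. These counts include genes with few UMIs, as the members held 1189633 UMIs in all. The 25 leading genes were those with the highest ratio among genes seen in at least 30% of members and at least 15 percentage points more often than in other cells, without the genes of the rule. All 25 were more than 2-fold higher in members in the M and in the F columns taken separately. The genes had been chosen by their ratio in these same cells, so this was largely fixed by the choice. For 24 of the 25 the level was higher in cells with 3 or more markers than in cells with exactly 2. The exception was Tinagl1, a matrix glycoprotein gene, at 62.2 and 78.7 CPM. It was at 918 CPM in mural cells.

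Cxcl14 was at 1613 CPM in vFB3 cells and 93.5 CPM in other cells, a ratio of 17.2 (16.3 to 18.2), and a UMI was seen in 87.8% (79.2 to 93.7) of members and 25.7% (24.1 to 27.4) of cells of no list after every cell was thinned to 5000 UMIs. Ltbp2 was at 194 CPM in vFB3 cells and 8.14 CPM in other cells, a ratio of 23.9 (20.2 to 28.2). Ltbp2 encodes a protein of microfibrils related to the binders of latent TGF-beta. Where a pair of levels follows, members come first and other cells after. Col6a4, a collagen VI chain, was at 119 and 5.33 CPM. Bmper, a secreted binder of BMPs, was at 35.3 and 2.54 CPM, Wnt4 at 356 and 47.7 CPM, and Il34, a ligand of the macrophage receptor CSF1R, at 116 and 20.5 CPM.

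Plvap was at 246 CPM in vFB3 cells and 7.47 CPM in other cells, a ratio of 33 (28.1 to 38.7). Unc5b and Unc5c, both netrin receptors, had ratios of 13.8 (11.4 to 16.6) and 7.52 (5.76 to 9.71), and the taurine transporter gene Slc6a6 a ratio of 6.55 (4.74 to 8.9). Ahr, a transcription factor that binds dietary and microbial ligands, was at 105 and 6.42 CPM. Atoh8 and Tbx3, also transcription factors, had ratios of 6.49 (4.58 to 8.99) and 5.72 (4.52 to 7.16). Rai14 and Afap1l2, which encode proteins of the actin cytoskeleton, had ratios of 7.74 (6.12 to 9.71) and 7.84 (5.96 to 10.2), and the intermediate filament gene Des one of 5.59 (4.96 to 6.28). The remaining leading genes were Gm12153, Fam162b, Tmem178, Eva1a, Sertm1, H2-Q6 and H2-Q7. Gm12153 is a long noncoding RNA, and H2-Q6 and H2-Q7 are near-identical class I genes whose reads could be assigned to either, so their ratios of 7.7 (5.94 to 9.88) and 5.86 (5.15 to 6.65) are uncertain.

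**Figure D3:**
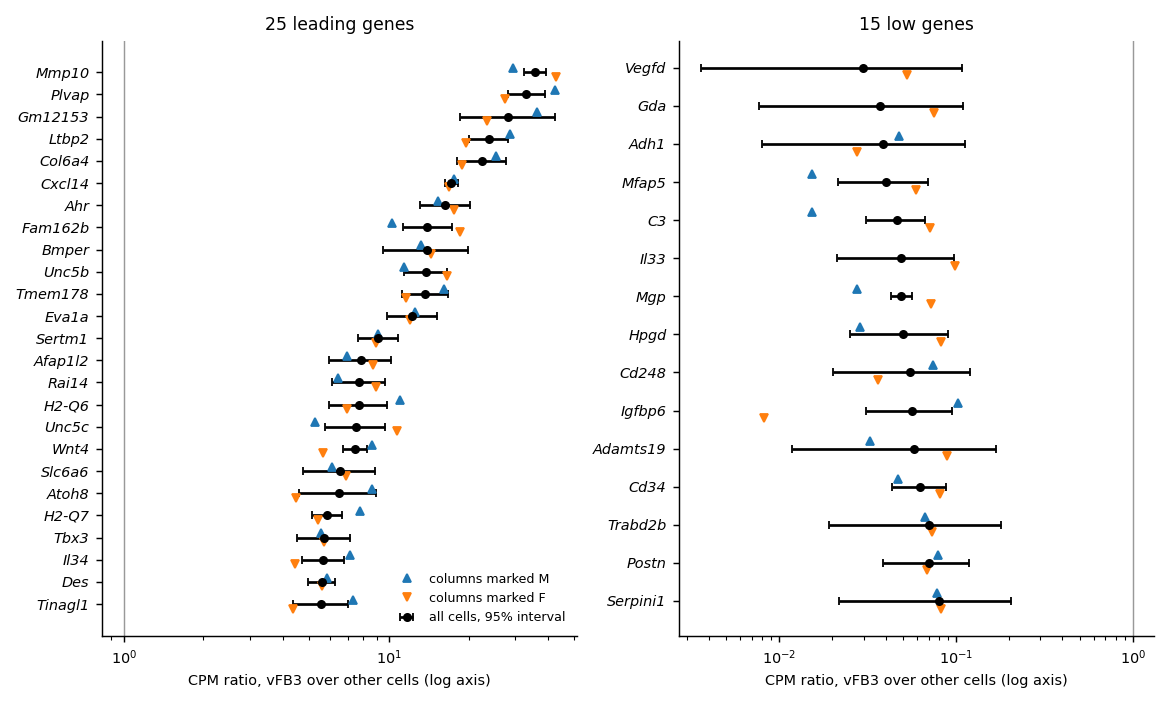
CPM ratio of vFB3 over other cells on a log axis for the 25 leading and the 15 low genes. Black points are all cells with exact 95% intervals for counting error, and triangles the columns marked M and F (a ratio of 0 is not drawn); Mmp10 leads at 35.6, and Vegfd is lowest at 0.0297.

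Promoters of the leading genes were searched as genes with a shared pattern for 2 motifs tied to the pathways the study concerns: the TEAD motif GGAATG and the AP-1 motif TGANTCA, on both strands, with N any base. The RefSeq window (GRCm38.p6, the assembly that mm10 names) spans 250 bases before to 50 after a gene's first listed start. Of the 25 leading genes, 20 matched a promoter by symbol. The TEAD motif was in 2 of the 20 and in 14.6% of all 27025 promoters, and the AP-1 motif was in 2 of the 20 and in 7.93% of all. The promoter of Mmp10, the gene with the highest ratio, held an AP-1 match that begins 63 bases before the start, and that of Tinagl1 held both motifs, which do not overlap there. They are shown 5′ to 3′ on the gene's strand, for Mmp10 chr9:7502092-7502391 (plus strand) and for Tinagl1 chr4:130175073-130175372 (minus strand), with the motif matches in capitals. A TEAD match on the other strand reads CATTCC.
Mmp10: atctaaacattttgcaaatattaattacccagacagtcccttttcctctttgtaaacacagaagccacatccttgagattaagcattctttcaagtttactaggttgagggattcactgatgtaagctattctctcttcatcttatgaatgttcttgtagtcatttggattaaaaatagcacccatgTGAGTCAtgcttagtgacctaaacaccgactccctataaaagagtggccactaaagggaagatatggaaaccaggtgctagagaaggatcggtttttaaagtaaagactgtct
Tinagl1: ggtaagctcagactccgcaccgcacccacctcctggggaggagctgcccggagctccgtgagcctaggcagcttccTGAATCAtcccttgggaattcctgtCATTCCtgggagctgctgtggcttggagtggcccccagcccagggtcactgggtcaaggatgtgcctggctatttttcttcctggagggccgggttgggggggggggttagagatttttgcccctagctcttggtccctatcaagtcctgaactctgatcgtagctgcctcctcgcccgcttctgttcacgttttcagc
The matches are runs of letters, not known sites. The windows of Vegfc, P2rx1 and Cxcl14 held neither motif, which says only that these letters are absent from those windows. The study took the shorter GGAAT as the TEAD sequence, and the P2rx1 window does hold GGAAT. By chromatin immunoprecipitation in mouse embryonic fibroblasts, the study found TEAD bound upstream of Vegfc. That site lies beyond the window searched here.

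The 15 genes lowest in members, by the same kind of rule, were all more than 2-fold lower in the M and in the F columns. Their choice by ratio in the same cells largely fixed this too. Of the 15, 14 were highest in FB4 fibroblasts. Vegfd was at 1.68 CPM in vFB3 cells and 56.6 CPM in other cells, a ratio of 0.0297 (0.00359 to 0.107), from 2 UMIs in all members. Vegfd encodes the other ligand of the lymphatic receptor VEGFR3. C3 was at 24.4 CPM in vFB3 cells and 524 CPM in other cells, a ratio of 0.0465 (0.0311 to 0.0668), where C3 encodes the central complement protein. The C3 ratio was 0.00815 in cells of 8000 to 14000 UMIs, 0.0120 with 3 or more markers, 0.0153 in the M and 0.0714 in the F columns, and 0.102 against cells of no list. Cd34 was at 27.7 CPM in vFB3 cells and 442 CPM in other cells, a ratio of 0.0628 (0.0432 to 0.0882). Mgp, an inhibitor of calcification, was at 179.9 and 3663 CPM, Mfap5, a microfibril gene, at 10.9 and 271 CPM, and Postn, or periostin, at 11.8 and 167 CPM. Il33, an alarmin gene, was at 6.72 and 137 CPM. The Mgp ratio was 0.0273 in the M and 0.0723 in the F columns, 0.0112 in cells of 8000 to 14000 UMIs and 0.0330 without the cells that had UMIs of both Xist and a Y-linked gene. Il33 had 0 UMIs in M members and a ratio of 0.0984 in the F columns. Over all 12 alternatives the highest ratio of any of the 15 was 0.167, that of Serpini1 at up to 5% mitochondrial UMIs. The other low genes were Gda, Adh1, Hpgd, Cd248, Igfbp6, Adamts19, Trabd2b and Serpini1, with ratios from 0.0373 to 0.0799. All 15 stayed at least 2-fold lower when members were set only against the 2801 cells that met no list.

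Of the other sets that the rule's gene lists define, FB4 held 936 cells, FB5 158, smooth muscle 62 and mural 52, and 2801 cells met no list. The 25 leading genes were higher in members than in no-list and FB4 cells without exception, higher than in FB5 and in smooth muscle for 24, and higher than in mural cells for 21. The mural exceptions were Tinagl1, Afap1l2, Il34 and Des, with Afap1l2 at 59.7 CPM in mural cells and 58 CPM in members, within counting error of each other. Il34 was at 116 CPM in members, 168 CPM in FB5 and 160.2 CPM in mural cells. Des was at 272 CPM in members against 863 CPM in mural and 767 CPM in smooth muscle cells. Wnt4 was at 356 CPM in members and 353 CPM in FB5 cells, and Slc6a6 at 41.2 CPM in members and 40.3 CPM in FB5 cells. Mmp10 and Ltbp2 differed from FB5 by far more: 663 against 7.58 CPM and 194 against 33.7 CPM.

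**Figure D4:**
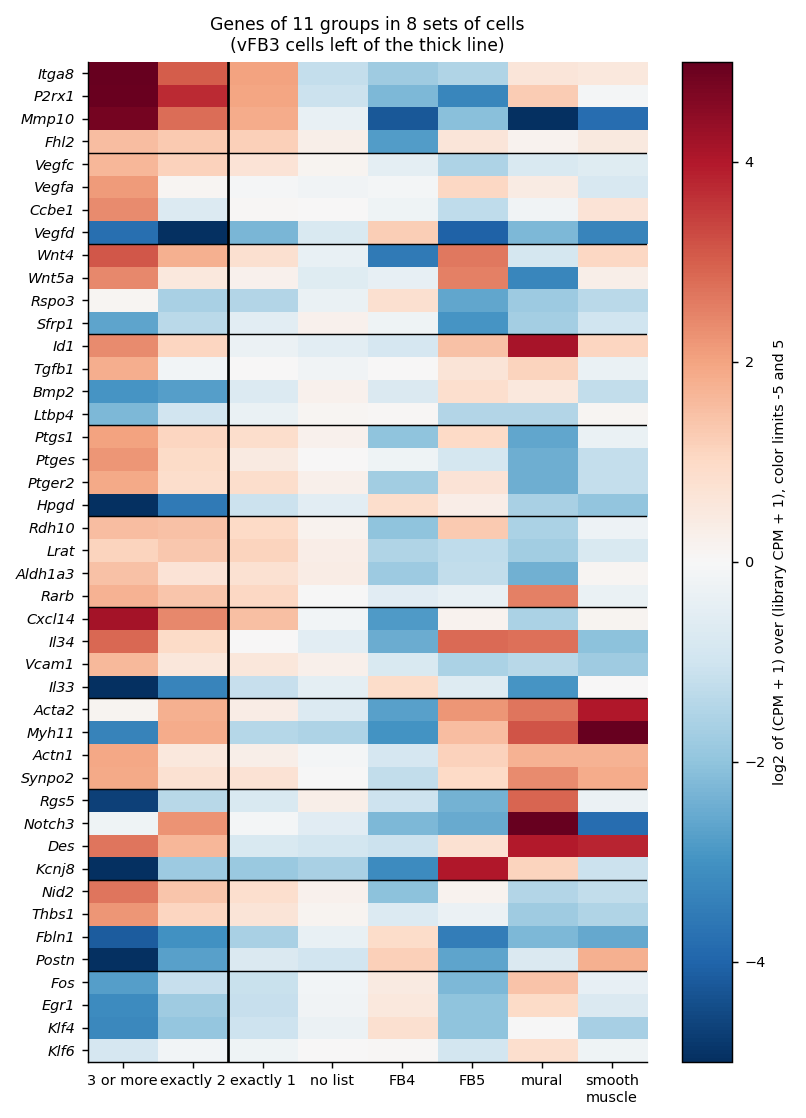
Each row is 1 of 44 genes in 11 groups and each column a set of cells, the 2 columns left of the thick line being vFB3 cells with 3 or more and with exactly 2 markers. Color is log2 of CPM plus 1 over the library's CPM plus 1, red higher and blue lower: Cxcl14, Mmp10, Wnt4 and Ccbe1 are red in the first column, and Myh11 and Rgs5 are blue there, Myh11 being reddest in smooth muscle and Rgs5 in mural cells.

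VEGF genes were unevenly distributed. Of this list, 3 of the 9 genes past the filter were at least 2-fold higher and 2 at least 2-fold lower, with a median ratio of 1.29. Over all genes, the shares to read this and each later list against were 3.56% higher and 8.69% lower, and the median was 1.05. Vegfc was at 327 CPM in vFB3 cells and 115 CPM in other cells, a ratio of 2.85 (2.56 to 3.16). Single members ranged from 0 to 8.77 UMIs per 10000 with a median of 3.07, and 77 of the 91 had a Vegfc UMI. After thinning to 5000 UMIs the share of cells with a Vegfc UMI was 70% (59.4 to 79.2) in members, 36.6% (34.8 to 38.4) in cells of no list, 28% (25.1 to 31) in FB4 and 15.3% (10.0 to 21.9) in FB5 cells. As a guide to free RNA, the Y-linked share in cells with 5 or more Xist UMIs was 4.14% of that in cells without Xist. The same percent of the library level is 4.98 CPM of Vegfc. Free RNA mixes RNA of both kinds of cell and so holds less Y-linked RNA than cells without Xist. The true part of free RNA can thus be larger, and this value is not an upper limit. The members held 7.02% of the Vegfc UMIs of the library in 2.22% of its cells. Vegfa was at 36.1 CPM in vFB3 cells and 11.3 CPM in other cells, a ratio of 3.21 (2.3 to 4.39), and Ccbe1 was at 48.8 CPM in vFB3 cells and 14.4 CPM in other cells, a ratio of 3.39 (2.55 to 4.44). The Vegfa ratio was 1.84 in the M columns, under 2-fold, 5.29 in the F columns and 2.19 among cells of 8000 to 14000 UMIs. Both genes were lower at the margin. Vegfa was at 55.9 CPM with 3 or more markers and 12.8 CPM with exactly 2, and Ccbe1 at 82.4 and 9.15 CPM. Pgf had a ratio of 0.337 (0.174 to 0.591). The coreceptor genes Nrp1 and Nrp2 had ratios of 1.17 (1.04 to 1.32) and 0.879 (0.734 to 1.04).

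Of the angiopoietins and guidance factors, 0 of the 14 genes past the filter were at least 2-fold higher and 4 at least 2-fold lower, with a median ratio of 0.842. Angpt2, at 17.7 CPM in vFB3 cells and 8.83 CPM in other cells, fell just short of 2-fold, and the count of 0 hangs on it. In the core alone 1 gene was at least 2-fold higher and 5 at least 2-fold lower. Over all 10117 genes past the filter, 632 were at least 2-fold higher in the core and 1269 at least 2-fold lower. The core was set here against the 4017 cells that were not members, and each core count is to be read beside these. Cxcl12, a chemokine of perivascular stroma, had a ratio of 1.37 (1.31 to 1.43). Sema3d was lowest, at 6.72 and 28.9 CPM, followed by Angptl2 at 47.1 and 147 CPM.

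Of the Hippo pathway list, 0 of the 16 genes past the filter were at least 2-fold higher and 0 at least 2-fold lower, with a median ratio of 1.09. In the core alone, 1 was at least 2-fold higher and 1 at least 2-fold lower, beside 632 and 1269 of all 10117 genes. Tead1 had a ratio of 1.94 (1.7 to 2.2), Yap1 of 1.15 (0.873 to 1.5) and Wwtr1, which encodes TAZ, of 0.526 (0.418 to 0.653). Lats1 was at 10.1 CPM in vFB3 cells and 14.4 CPM in other cells, and Lats2 at 70.6 CPM in vFB3 cells and 53.1 CPM in other cells. As the reads came from 3-prime ends, these counts need not fall in the deleted exons and do not check the deletion. Of the YAP/TAZ target genes, 1 of the 13 genes past the filter was at least 2-fold higher and 3 at least 2-fold lower, with a median ratio of 1.25. Ajuba, a LIM protein that binds LATS, was at 30.3 CPM in vFB3 cells and 9.41 CPM in other cells. The canonical targets differed in direction. Ctgf had a ratio of 1.98 (1.67 to 2.33), Amotl2 of 1.25 (1.09 to 1.43) and Cyr61 of 0.402 (0.345 to 0.466). F3, the tissue factor gene, was at 8.41 and 50.5 CPM. Wisp2 had 0 UMIs in members, at least 4.37-fold lower than in other cells at a floor of 3 UMIs. Ctgf was higher in cells with exactly 2 markers, at 176 CPM, than with 3 or more, at 82.4 CPM, and mural cells had 405 CPM.

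Of the list of tachykinin, purine and adenosine genes, 1 of the 7 genes past the filter was at least 2-fold higher and 3 at least 2-fold lower, with a median ratio of 1.06, and the gene counted as higher was P2rx1 itself. P2rx4 had a ratio of 1.62 (1.26 to 2.05), the ADP receptor gene P2ry1 of 1.3 (0.997 to 1.67) and P2ry14, a receptor of UDP-glucose, of 0.473 (0.403 to 0.552). Of 2 genes for enzymes that break down extracellular nucleotides, Entpd1 was at 15.1 and 39.8 CPM and Entpd2 was at 26.1 and 265 CPM. Of the vasoactive and neurotransmitter receptors, 2 of the 18 genes past the filter were at least 2-fold higher and 10 at least 2-fold lower, with a median ratio of 0.403, beside 3.56% higher and 8.69% lower over all genes. Those higher were Adra1b, an adrenergic receptor gene, at 37.8 and 9.78 CPM, and Gria4, a glutamate receptor subunit gene, at 19.3 and 7.47 CPM. Vipr2 was at 4.2 and 34.2 CPM, Ednrb at 9.25 and 53.2 CPM, and Calcrl at 38.7 and 124 CPM. Chrm3, the muscarinic receptor gene, had 0 UMIs in members and was at 9.9 CPM in other cells, at least 3.92-fold lower at a floor of 3 UMIs.

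In nitric oxide and cyclic GMP signalling, 2 of the 8 genes past the filter were at least 2-fold higher and 1 at least 2-fold lower, with a median ratio of 1.38. Prkg1, the cyclic GMP-dependent kinase gene, had a ratio of 2.97 (2.17 to 3.97) and the guanylate cyclase subunit gene Gucy1b1 one of 1.93 (1.71 to 2.17), while Pde5a, which breaks cyclic GMP down, had one of 0.483 (0.36 to 0.635).

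Slco2a1, the transporter gene of the rule, stayed under the filter on library level, and of the list 3 of the 13 genes past the filter were at least 2-fold higher and 3 at least 2-fold lower, with a median ratio of 1.03, beside 3.56% higher and 8.69% lower over all genes. Ptgs1 was at 225 CPM in vFB3 cells and 66.4 CPM in other cells, a ratio of 3.39 (2.98 to 3.85), where Ptgs1 encodes cyclooxygenase-1. Ptges, the prostaglandin E synthase gene, was at 168 and 46 CPM, and Ptger2, a receptor of prostaglandin E2, at 57.2 and 18.4 CPM. Hpgd was at 9.25 CPM in vFB3 cells and 184 CPM in other cells, a ratio of 0.0502 (0.0251 to 0.0899), where Hpgd encodes the enzyme that inactivates prostaglandins. Ptgfr was at 0.841 and 16.1 CPM, and Ptgs2, or cyclooxygenase-2, was even at 26.9 and 26.1 CPM. Of these, Ptgs1 was at 289 CPM with 3 or more markers, 150.1 CPM with exactly 2 and 132 CPM with exactly 1, and 16.8 CPM in FB4 cells.

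Of the contractile genes, 8 of the 19 genes past the filter were at least 2-fold higher and 1 at least 2-fold lower, with a median ratio of 1.74, beside 3.56% higher and 8.69% lower over all genes. The core and the margin differed. Over the cells with 3 or more markers, 4 were at least 2-fold higher and 4 at least 2-fold lower, beside 632 and 1269 of all 10117 genes. Acta2 was at 2314 CPM with exactly 2 markers, 729 CPM with 3 or more and 645 CPM in other cells, and Myh11, the smooth muscle myosin gene, at 258, 6.22 and 70.2 CPM. Actn1 and Synpo2, which encode an actin cross-linker and an actin-binding protein, went the other way. Actn1 was at 259.5 CPM with 3 or more markers and 98.9 CPM with exactly 2, and Synpo2 at 119.7 and 54.9 CPM. Synm was lowest of the list with a ratio of 0.487 (0.315 to 0.721).

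Mural cell genes outside the rule gave a similar picture. Of this list, 5 of the 10 genes past the filter were at least 2-fold higher and 3 at least 2-fold lower, with a median ratio of 2.08. Over all genes 3.56% were higher and 8.69% lower. In the cells with 3 or more markers 2 genes of the list were higher and 5 lower, beside 632 and 1269 of all 10117 genes. Des and Tbx2 were the higher genes there, with Des at 354 CPM and Tbx2 at 129 CPM. Rgs4 had 73.2 CPM with exactly 2 markers and 0 UMIs with 3 or more, Notch3 64.1 and 10.9 CPM, and Kcnj8 9.15 CPM and 0 UMIs. Abcc9, a potassium channel subunit gene of pericytes, was lowest with 1 UMI in members and a ratio of 0.0522 (0.00132 to 0.292). The summed level of the 12 genes was 624 CPM in members, 328 CPM in other cells and 4575 CPM in mural cells. The 5 mural genes of the rule summed to 18.6 CPM with 3 or more markers, 247 CPM with exactly 2 and 5249 CPM in mural cells, where the rule allows fewer than 3 of them in a member. Pdgfrb itself, among the fibroblast genes, was at 1322 CPM in vFB3 cells and 512 CPM in other cells, with 2246 CPM in mural cells.

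Of the fibroblast genes, 1 of the 11 genes past the filter was at least 2-fold higher and 4 at least 2-fold lower, with a median ratio of 0.908, and Pdgfrb was the gene that was higher. Col1a1, the collagen I chain gene, had a ratio of 0.998 (0.965 to 1.03). Cd34, described above, was lowest. Dcn, Lum and Dpt, which encode collagen-binding proteins, were lower, with Dcn at 4857 and 11581 CPM and Lum at 423 and 1885 CPM. Pdgfra was at 269 and 482 CPM.

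Of the collagens, 2 of the 19 genes past the filter were at least 2-fold higher and 3 at least 2-fold lower, with a median ratio of 0.98. Col18a1, a basement membrane collagen gene, and Col8a1 were higher, at 467 and 164 CPM and 134 and 52.7 CPM. Col8a1 was at 241 CPM with 3 or more markers and 7.32 CPM with exactly 2. Col15a1 and Col4a5 were lower, with ratios of 0.288 (0.226 to 0.361) and 0.201 (0.0547 to 0.518). Of the other matrix genes, 5 of the 33 genes past the filter were at least 2-fold higher and 12 at least 2-fold lower, with a median ratio of 0.869. Nid2, the basement membrane linker nidogen-2, was at 220.2 and 41.8 CPM, Thbs1, or thrombospondin-1, at 431 and 116 CPM, and Has2, a hyaluronan synthase gene, at 34.5 and 10.2 CPM. Lama5, a laminin chain gene under the filter, was at 31.9 and 1.32 CPM. Fibulin genes differed, as Fbln5 had a ratio of 2.63 (2.54 to 2.73) and Fbln1 of 0.0838 (0.0708 to 0.0985). Elastin (Eln) was at 42 and 256 CPM.

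Of the integrins and ligands of Itga8, 3 of the 17 genes past the filter were at least 2-fold higher and 1 at least 2-fold lower, with a median ratio of 1.21. Beside Itga8 of the rule, Itga9 was at 82.4 and 20.2 CPM and Itgb3 at 66.4 and 25.3 CPM. Itgb1, the partner chain of Itga8, had a ratio of 1.52 (1.42 to 1.62). Among ligands, Fn1 and Tnc had ratios of 1.91 (1.81 to 2.01) and 1.94 (1.75 to 2.14), and Npnt, or nephronectin, had 1 UMI in members, though it is 1 of the smooth muscle genes that the rule limits. Of the metalloproteinases and their inhibitors, 1 of the 19 genes past the filter was at least 2-fold higher and 7 at least 2-fold lower, with a median ratio of 0.689. Mmp10 was the gene that was higher. Its neighbour in the gene family, Mmp3, or stromelysin-1, was at 2.52 and 72 CPM, a ratio of 0.035 (0.00722 to 0.102), and the inhibitor genes Timp3 and Timp1 had ratios of 0.235 (0.185 to 0.293) and 0.411 (0.25 to 0.636).

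Of the BMP and activin genes, 4 of the 26 genes past the filter were at least 2-fold higher and 9 at least 2-fold lower, with a median ratio of 0.755. Those higher, apart from Ltbp2, were Id1 at 42.9 and 9.9 CPM, Id3 at 1213 and 444 CPM, both genes that respond to BMP signalling, and Tgfb1 at 43.7 and 17.6 CPM. The ligand genes differed, with Bmp4 at a ratio of 1.37 (1.28 to 1.46) and Bmp2 at 0.126 (0.0687 to 0.211). Chrdl1, a BMP antagonist gene, had 0 UMIs in members, at least 6.66-fold lower at a floor of 3 UMIs. Grem1 and Bmp7 were also low, but the rule limits both. Of the Wnt genes and R-spondins, 2 of the 16 genes past the filter were at least 2-fold higher and 9 at least 2-fold lower, with a median ratio of 0.381, beside 3.56% higher and 8.69% lower over all genes. Wnt4 and Wnt5a, ligands of mostly noncanonical Wnt signalling, were the genes that were higher. Wnt5a was at 126 and 32.4 CPM, and the rule limits it as an FB5 gene. Sfrp1 was at 384 CPM in vFB3 cells and 1466 CPM in other cells, a ratio of 0.262 (0.238 to 0.287), where Sfrp1 encodes a secreted Wnt inhibitor. Rspo1 and Rspo2 had 1 UMI each in members, with ratios of 0.0618 (0.00156 to 0.346) and 0.0747 (0.00189 to 0.418), and Rspo3 had a ratio of 0.713 (0.543 to 0.92). Axin2, a gene that canonical Wnt signalling induces, was at 4.2 and 17.5 CPM.

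Of the EGF, FGF, IGF and PDGF genes, 6 of the 25 genes past the filter were at least 2-fold higher and 7 at least 2-fold lower, with a median ratio of 0.855. Nrg1, a ligand of ERBB receptors, was at 26.1 and 6.6 CPM, with 45.1 CPM in the cells with 3 or more markers. Fgf10 was at 33.6 and 11.3 CPM, and Fgfr2, the receptor gene, at 374 and 100.3 CPM. Fgf7 was at 1.68 and 30.1 CPM. Of the binding proteins of IGF, Igfbp3 had a ratio of 2.16 (2.0 to 2.33), and Igfbp5 and Igfbp6 of 0.211 (0.163 to 0.27) and 0.0564 (0.0308 to 0.0948). The Igfbp6 ratio rested on 14 UMIs in members, 10 of them (71.4%) from 1 cell, and was 0.0161 without the cells of the 4% highest doublet scores, 0.103 in the M and 0.00822 in the F columns.

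Of the chemokines and cytokines, 4 of the 23 genes past the filter were at least 2-fold higher and 6 at least 2-fold lower, with a median ratio of 1.26. Cxcl14 and Il34 have been described. Vcam1, an adhesion molecule gene, was at 302 and 124 CPM and Ccl2, a monocyte chemokine gene, at 152 and 73.3 CPM. Ccl2 was at 258 CPM with 3 or more markers and 27.5 CPM with exactly 2. Ccl11, or eotaxin, showed the reverse, at 172 and 1597 CPM beside 1108 CPM in other cells. Icam1 was at 80.7 and 364 CPM, and Il6 had 0 UMIs in members. At a floor of 3 UMIs this is at least 7.1-fold lower than its 17.9 CPM in other cells.

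Of the retinoid genes, 4 of the 10 genes past the filter were at least 2-fold higher, 1 was at least 2-fold lower and 5 lay between, with a median ratio of 0.90. Rdh10, Lrat, Aldh1a3 and Rarb were higher. Rdh10 and Aldh1a3 encode enzymes that make retinoic acid and Lrat the enzyme that stores retinol as ester, and their levels were 400.1 and 132 CPM, 746 and 324 CPM and 583 and 241 CPM. Rarb, a receptor gene that retinoic acid induces, was at 21 and 5.95 CPM. Set only against cells of no list, Lrat and Aldh1a3 were at ratios of 1.84 and 1.72, and FB4 cells had 88 and 94.5 CPM.

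Of the hedgehog, Notch and Fox genes, 5 of the 16 genes past the filter were at least 2-fold higher and 1 at least 2-fold lower, with a median ratio of 1.39. Those higher were Foxl1, Notch1, Jag1, Dll1 and Notch3, the last given with the mural genes. Foxl1, a gene of subepithelial fibroblasts that the rule limits, was at 25.2 and 4.93 CPM. Notch1 was at 31.9 and 9.34 CPM and the ligand genes Jag1 and Dll1 had ratios of 2.42 (1.57 to 3.57) and 2.24 (1.53 to 3.16). Hhip, an inhibitor of hedgehog ligands, was at 26.1 and 70.3 CPM, while the hedgehog receptor gene Ptch1 had a ratio of 1.66 (1.49 to 1.84). Of the transcription factors of gut mesenchyme, 6 of the 29 genes past the filter were at least 2-fold higher and 6 at least 2-fold lower, with a median ratio of 0.992. Tbx3, Hand2, Runx2, Tbx2, Runx1 and Mef2c were higher, with Hand2 at 20.2 and 4.73 CPM. Mef2c, at 104 CPM with exactly 2 markers and 9.32 CPM with 3 or more, was higher in the margin. Sox9 and Osr1 were lower, with ratios of 0.123 (0.0334 to 0.316) and 0.182 (0.0938 to 0.318).

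Of the ion channels and gap junction genes, 0 of the 17 genes past the filter were at least 2-fold higher and 6 at least 2-fold lower, with a median ratio of 0.684. Trpc1 had the highest ratio, 1.68 (1.2 to 2.29), and Piezo2, a mechanosensitive channel gene, was at 0.841 and 34.3 CPM, while Piezo1 had a ratio of 1.13 (0.737 to 1.67). Kcnn3, a calcium-activated potassium channel gene, was at 6.72 and 73.6 CPM and Scn7a, a sodium channel gene, at 31.1 and 194 CPM. Of the adhesion receptors and mechanosensing genes, 1 of the 8 genes past the filter was at least 2-fold higher and 3 at least 2-fold lower, with a median ratio of 0.911. Adgrf5 of the rule stayed under the filter on library level, Adgrl3 was at 158 and 43.8 CPM, and Adgrg2 had 0 UMIs in members.

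Of the immediate early and stress genes, 0 of the 24 genes past the filter were at least 2-fold higher and 19 at least 2-fold lower, with a median ratio of 0.306, against 8.69% of all genes lower. Fos was at 343 CPM in vFB3 cells and 1213 CPM in other cells, a ratio of 0.283 (0.256 to 0.312). The Fos ratio was 0.213 in the M columns, 0.366 in the F columns and 0.0852 in cells of 8000 to 14000 UMIs. Egr1 was at 182 CPM in vFB3 cells and 951 CPM in other cells, a ratio of 0.191 (0.166 to 0.218). Klf4 had the lowest ratio, 0.17 (0.123 to 0.228), and Klf6 the highest, 0.709 (0.59 to 0.845). In the cells with 3 or more markers Fos was at 176 CPM. With exactly 1 marker it was at 549 CPM, already below the 1150.4 CPM of cells with 0 markers. Set only against cells of no list, Fos had a ratio of 0.314 and Egr1 of 0.218. The study splits the other villus fibroblasts into vFB1, high in immediate early genes, and vFB2, without them. The cells of no list were not split in this way, so low Fos is not shown to be particular to vFB3. The 30 members in the cluster of 721 cells had Fos at 59.6 CPM, beside 190.9 CPM in the cluster of 45. Of the cell cycle genes, 0 of the 3 genes past the filter were at least 2-fold higher and 1 at least 2-fold lower, with a median ratio of 0.629. Ccnd2 was at 21.9 and 96.2 CPM, and Mki67 had 2 UMIs in members.

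**Figure D5:**
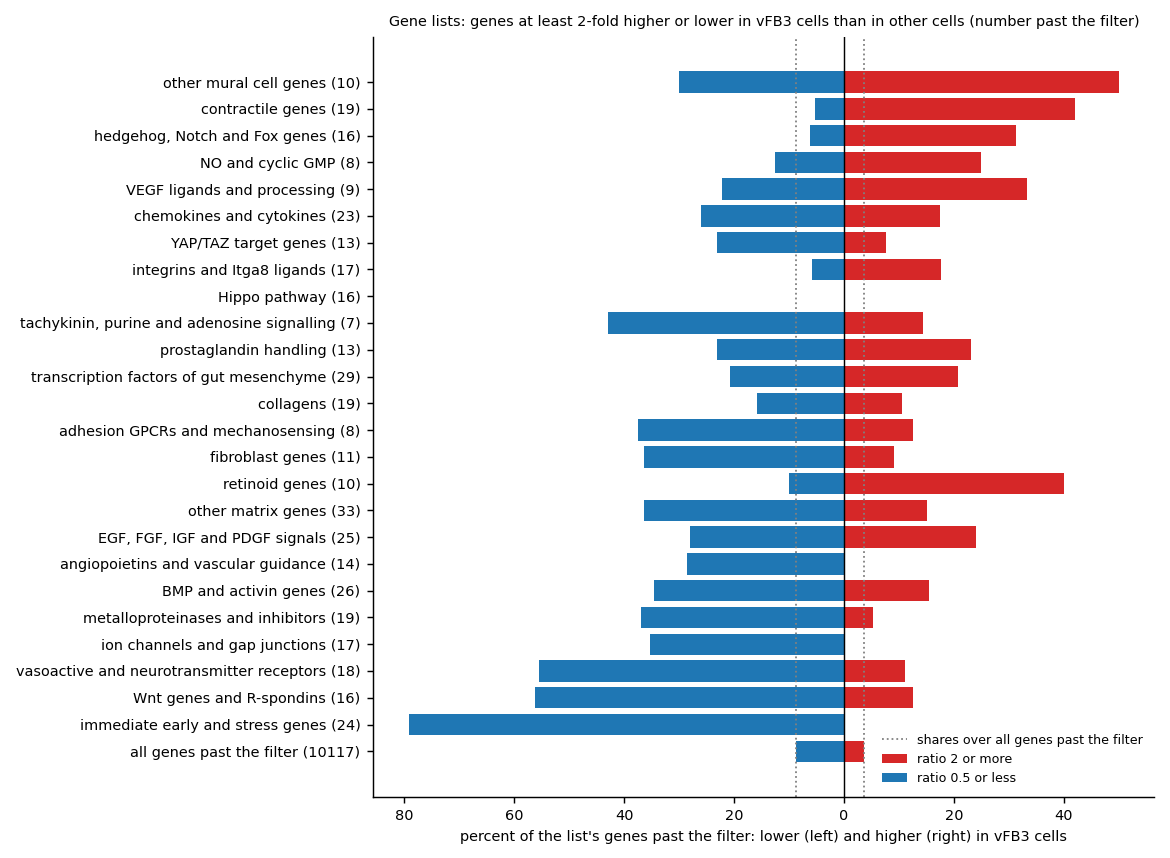
Bars give, for lists with 5 or more genes past the 5 CPM filter and without the rule's own lists and the sex-linked genes, the percent of those genes (their number in parentheses) that were at least 2-fold lower, to the left in blue, or higher, to the right in red, in vFB3 cells than in other cells, in order of the list's median ratio. Dotted lines mark 8.69% lower and 3.56% higher over all genes. Of the lists drawn, immediate early and stress genes reach furthest left with 19 of 24, and other mural cell genes furthest right with 5 of 10.

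Many markers of other cell types were at 0, where a floor of 3 UMIs in all members corresponds to 2.52 CPM. By the study's methods, immune cells with Ptprc and endothelial cells with Pecam1 and Cdh5 were taken out before deposit, after immune, endothelial and epithelial cells had been depleted with beads, so low values of their markers were largely fixed beforehand. Members had 0 UMIs of Pecam1, Cdh5, Lyve1, Prox1 and Flt4, 5 of the 8 endothelial genes, and the 8 genes summed to 5.88 CPM in members and 15.5 CPM in other cells. Of 7 immune genes, 5 were at 0 in members, Ptprc and Csf1r among them, and the list summed to 34.5 and 29.2 CPM, mostly from Lyz2 at 31.9 and 18.7 CPM. All 6 epithelial genes and all 3 mesothelial genes were at 0. Genes of glia and neurons summed to 4.2 and 6.08 CPM, and those of interstitial cells of Cajal to 35.3 and 34.9 CPM with Kit at 0. The rule defines the FB5, FB4 and smooth muscle sets by their genes and limits those genes in members, except the FB5 genes in the core, so the following contrasts were in large part fixed by the selection. The FB5 genes summed to 351 CPM in the core and 1325 CPM in FB5 cells, and 2 core cells carried 4 or more of the 6. The FB4 genes summed to 38.7 CPM in members and 2086 CPM in FB4 cells, and the smooth muscle genes of the rule to 24.4 CPM in members and 3960 CPM in smooth muscle cells.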

How the data were processed

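Sorted PDGFRb+ stromal cells of LATS1/2 KO mice were measured with 3-prime droplet sequencing. Per the submitters' notes, the authors aligned reads with Cell Ranger 3.0.2 to mm10 and used Seurat 3.0.1, leaving cells with 1128 to 5995 genes and up to 7.00% mitochondrial UMIs in the file. The authors deposited natural log values (1 added to UMIs per 10000 before the log), not the raw counts that the design assumed. Of 13789523 nonzero values, 100.00% were whole multiples of 1 UMI (tolerance 0.001), and UMI counts were read back from them. Pooled CPM got exact Poisson intervals, ratios exact binomial ones and shares Clopper-Pearson ones, all 95% and for counting error only. Genes at 5 CPM or more over the library (10117) were counted as higher or lower past 2-fold. Cells were clustered with Seurat 5.3.0 in R 4.3.3, with 2000 variable genes, 30 components and resolution 0.5. From these variable genes the VEGF, YAP/TAZ target and sex-linked lists, Lats1 and a few genes the study named were taken out. UMI count and mitochondrial percent were regressed out. Scrublet in scanpy 1.11.5 scored doublets and called 9 cells (0.219%), so it did not work as a filter. No cell was removed. Other tools were Python 3.11.15, numpy 2.4.6 and scipy 1.17.1. Promoters were from RefSeq. Interval code was tested on simulated data.

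The members and gene lists were chosen with earlier results of these data known. Named were 2 or more genes of each list, with the highest and lowest ratios past the filter, plus Vegfc, Vegfa, Ccbe1, Mmp10, Fhl2, Lats1, Lats2, Amotl2, Ctgf and Cyr61, the 25 leading genes and the 15 low genes (seen in at least 30% of other cells and 15 points less often in members). Genes named further, and the comparison of margin and core, were picked after their values were seen. The result of 1 listed gene is not reported here.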

Additional observations from a re-analysis of the deposited data

How the results depend on the processing

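The share of members, 2.22%, was 1.19% with at least 3 markers, 1.35% with the rule applied after thinning to 5000 UMIs, 1.24% with at least 2 UMIs of a marker, 1.49% among cells with at most 5% mitochondrial UMIs and 1.10% for the cluster of 45 cells. The Vegfc ratio, 2.85, was 3.25 with at least 3 markers, 3.23 with 2 UMIs, 2.56 at 5% mitochondrial UMIs, 3.31 for the cluster and 2.45 against cells of no list. The Mmp10 ratio, 35.6, was 47.2, 44.5, 56.1, 47.8 and 24.4 in the same order, 29.5 in M and 42.6 in F columns. The Fhl2 ratio, 2.86, was 4.0 at 5% mitochondrial UMIs, 3.25 in cells of 8000 to 14000 UMIs and 2.22 against no list. Higher genes, 360, numbered 626 with 3 markers, 556 after thinning, 570 with 2 UMIs, 643 at 5% mitochondrial UMIs, 704 for the cluster, 587 in the UMI window, 716 at a 1 CPM and 142 at a 20 CPM filter, 1169 at 1.5-fold and 116 at 3-fold. Lower genes, 879, numbered 1333 for the cluster, 1511 and 407 at those filters, and 1549 and 479 at those folds. The share of members with a Vegfc UMI, 70.0%, was 42.9% after thinning to 2000 UMIs and 84.6% unthinned. None of these values changed direction. Of 540 values of named genes, 224 left their main interval. All 25 leading and all 15 low genes stayed past 2-fold under the 12 alternatives. As they were chosen by extreme ratios in the same cells, this is not an independent check. The Lats1 ratio, 0.703, was 1.11 in the UMI window and so changed side. The causes of these shifts were not tested. No paired analysis was possible because 1 library was analysed. The 91 cells limit precision for genes with few UMIs.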
